A study of Homo sapiens with 9 samples.

Results

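The genes described here are 47 DNA replication licensing and fork genes, chosen by name and by what their proteins do: origin recognition and licensing, the MCM helicase and its activation, the sliding clamp and its loaders, the single-strand binding protein RPA, the replicative polymerases and the factors that travel with the fork. They were 47 of the 30017 genes in the count table. All 47 carried enough counts to be tested, among 12712 genes tested in all, and each member held from 248 to 19492 counts in a library. The counts came from MOLM13 cells, a human acute myeloid leukemia cell line, grown in RPMI with 20% fetal bovine serum. Cells were transduced with a GFP lentivirus (pLKO-GFP) made in 293T cells and sorted 4 days later, and the virus carried sh-Control, shDDX41 #1 or shDDX41 #2, with 3 libraries for each hairpin, named by the letters A, B and D. DDX41 is a DEAD-box RNA helicase, and a short hairpin RNA (shRNA) lowers the mRNA that it pairs with without altering the gene. Each hairpin was tested in this single cell line, and the labels do not say whether the libraries of a group came from separate transductions, so the p-values measure the spread between these libraries, which may be technical.

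Replication of DNA starts from origins that are licensed once in each cell cycle. The origin recognition complex (ORC), CDC6 and CDT1 load the ring-shaped MCM2 to MCM7 helicase onto DNA, and the kinase made of CDC7 and DBF4, with MCM10, CDC45 and the GINS complex, turns the loaded ring into a running helicase. Behind it, primase and the polymerases copy both strands, RPA coats the unwound DNA, the clamp PCNA holds the polymerases and enzymes of the lagging strand in place, and FEN1 and LIG1 join the finished pieces. Many of these genes are transcribed as cells pass from G1 into S phase, under the control of E2F transcription factors.

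Promoter sequences of 6 members are shown: CDC45, CDC6 and MCM7, which were at least 2-fold lower with shDDX41 #1, MCM6, which was lowest with shDDX41 #2, and ORC2 and ORC5, which were not called with shDDX41 #1. They were picked with their levels known and do not stand for the other members. RefSeq promoter windows (build GRCh38.p14), from 250 bases before to 50 bases after the transcription start, were matched by symbol for 40 of the 47 members, some with several starts. MCM4, MCM5, GINS4, DSCC1, RPA2, RPA3 and POLD3 had no window. The windows were searched on both strands for 4 E2F-type sequences (TTTCCCGC, TTTCGCGC, TTTGCCGC and TTTGGCGC), whose matches can overlap each other. CDC45 was on the + strand at chr22:19479670-19479969 (the window of 1 of its 3 starts), CDC6 on the + strand at chr17:40287629-40287928, MCM6 on the - strand at chr2:135876394-135876693 and MCM7 on the - strand at chr7:100101348-100101647 (also 1 of 3 starts), and capitals mark the E2F-type matches. ORC2 at chr2:200963611-200963910 and ORC5 at chr7:104207964-104208263, both on the - strand, held none of these letters and are in lower case throughout, as is CDC45. Each window holds the sequence upstream of the gene and the first bases of its transcript.
CDC45: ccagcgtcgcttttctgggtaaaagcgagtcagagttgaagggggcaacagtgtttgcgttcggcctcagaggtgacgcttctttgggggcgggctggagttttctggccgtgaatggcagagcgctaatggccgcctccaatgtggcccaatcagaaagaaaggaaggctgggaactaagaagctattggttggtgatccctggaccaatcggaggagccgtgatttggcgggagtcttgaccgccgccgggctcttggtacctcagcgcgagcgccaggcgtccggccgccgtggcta
CDC6: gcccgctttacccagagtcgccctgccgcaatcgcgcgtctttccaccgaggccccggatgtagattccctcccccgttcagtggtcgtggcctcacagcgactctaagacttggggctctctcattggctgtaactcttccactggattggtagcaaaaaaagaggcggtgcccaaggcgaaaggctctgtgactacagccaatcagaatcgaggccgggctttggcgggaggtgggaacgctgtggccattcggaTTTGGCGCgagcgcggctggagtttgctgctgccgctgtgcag
MCM6: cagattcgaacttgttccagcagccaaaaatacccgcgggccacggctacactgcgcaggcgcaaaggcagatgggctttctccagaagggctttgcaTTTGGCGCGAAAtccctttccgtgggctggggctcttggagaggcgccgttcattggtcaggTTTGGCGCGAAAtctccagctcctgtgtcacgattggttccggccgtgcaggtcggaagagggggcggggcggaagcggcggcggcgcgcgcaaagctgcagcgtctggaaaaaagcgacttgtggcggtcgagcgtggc
MCM7: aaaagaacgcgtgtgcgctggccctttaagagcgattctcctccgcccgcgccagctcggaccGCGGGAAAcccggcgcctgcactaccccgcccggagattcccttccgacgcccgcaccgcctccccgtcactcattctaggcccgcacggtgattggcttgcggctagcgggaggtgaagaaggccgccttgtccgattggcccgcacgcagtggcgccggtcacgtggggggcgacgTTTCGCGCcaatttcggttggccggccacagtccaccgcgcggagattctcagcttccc
ORC2: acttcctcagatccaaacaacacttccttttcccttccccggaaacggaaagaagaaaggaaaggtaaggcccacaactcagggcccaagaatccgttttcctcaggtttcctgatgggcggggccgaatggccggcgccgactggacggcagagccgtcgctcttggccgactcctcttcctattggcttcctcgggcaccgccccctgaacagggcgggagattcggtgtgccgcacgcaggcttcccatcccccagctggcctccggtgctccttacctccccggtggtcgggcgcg
ORC5: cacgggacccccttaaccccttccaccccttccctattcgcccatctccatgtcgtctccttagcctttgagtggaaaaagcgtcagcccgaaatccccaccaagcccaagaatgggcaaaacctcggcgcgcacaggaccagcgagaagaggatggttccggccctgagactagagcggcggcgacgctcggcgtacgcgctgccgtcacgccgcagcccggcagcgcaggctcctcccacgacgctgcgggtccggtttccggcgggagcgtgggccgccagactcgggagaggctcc

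In CDC6 the match began at position 8, where the start is position 1. The MCM7 window shown held 2 matches, at 187 and 9 bases before the start, and the windows of its other starts held none. In MCM6 the 4 matches lay 152, 148, 90 and 86 bases before the start and formed overlapping neighbours, so that 2 stretches of the window carried them all. E2F-type letters stood in a window of 21 of the 40 members (52.5%), and in 855 of 15842 protein-coding genes (5.40%) and 1090 of all 27305 genes in the promoter table (3.99%). CCAAT, the letters of the NF-Y box, stood in 23 of 40 members (57.5%) and in 42.1% of protein-coding genes. TTTGAA, the CHR element found in many genes of G2 and mitosis, stood in 1 of 40 members (2.50%), DBF4, and in 15.9% of protein-coding genes. Of the 37 members with a window that were called lower with shDDX41 #1, 21 held E2F-type letters. The 3 with a window that were not called (ORC2, ORC4 and ORC5) held none. The 21 members with E2F-type letters had log2 fold changes with shDDX41 #1 from -1.27 to -0.33 (median -0.80), and the 19 without them from -1.44 to 0.01 (median -0.67), so the ranges overlapped. CDC45, the member with the lowest value among those without these letters, had none in any of its 3 windows. Only the 4 listed sequences were searched, so a window without them may hold a close variant. The CDC45 and CDC6 windows shown each hold tttggcgg, which differs from TTTGGCGC in its last base and was not searched. A match is a string of letters and not a measured binding site.

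**Figure D1:**
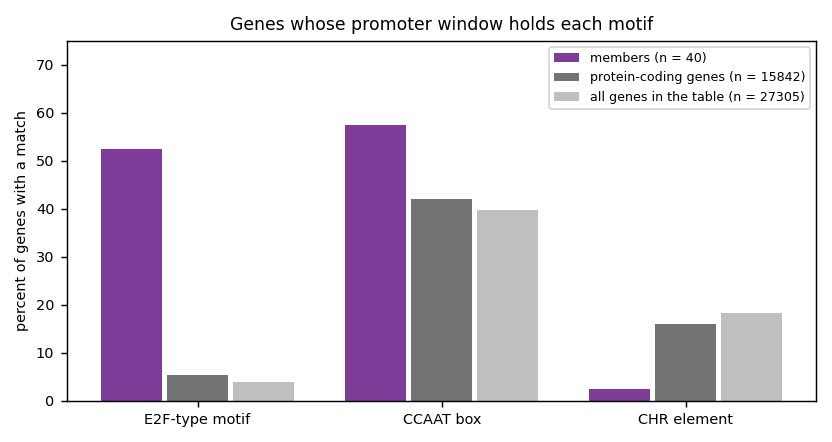
Percent of genes (vertical axis) whose promoter window holds an E2F-type motif, a CCAAT box or a CHR element, for the 40 members with a window, 15842 protein-coding genes and all 27305 genes of the RefSeq promoter table. E2F-type letters stood in 52.5% of members and 5.40% of protein-coding genes, and CHR letters in 2.50% of members.

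The 9 libraries held from 16385238 to 20510032 counts. Levels are CPM, the count of a gene as a share of the library total after TMM scaling (a trimmed mean over genes that sets the totals on one footing), and 3 values in a row are replicates A, B and D of a group. All 11 myeloid markers examined were over 1 CPM in every library, and their summed level was 2580 to 2770 CPM in sh-Control, 2630 to 2730 with shDDX41 #1 and 3500 to 3560 with shDDX41 #2. The higher sum with shDDX41 #2 was shared by only part of the markers. Against sh-Control, edgeR called 4 of the 11 higher (LYZ, MPO, ITGAM and PTPRC), 0 lower and left 7 not called. Of all genes tested, 11.6% were called higher there. The median log2 fold change of the 11 markers was -0.04, while LYZ went from a mean of 931 CPM in sh-Control to 1820 with shDDX41 #2. The 4 T cell and 4 B cell markers summed to at most 2.18 and 1.32 CPM in any library, 3 of 4 erythroid markers had no count in any library, and KRT8 and KRT18 were the only epithelial markers of 4 over 1 CPM in every library (summed list 14.7 to 19.4 CPM). Within groups, pairs of libraries differed by 2.45 to 19.2 times the sampling noise (chi-square per degree of freedom), and the shDDX41 #1 D library was the farthest from its group (17.6 and 19.2), so no library was a copy of another.

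DDX41 itself was at 117, 115 and 113 CPM in sh-Control, 12.2, 12.9 and 9.95 CPM with shDDX41 #1, and 38.9, 39.9 and 42.5 CPM with shDDX41 #2. The remaining level was 10.2% of control with shDDX41 #1 and 35.2% with shDDX41 #2, and the 3 groups did not overlap. Calls were made in edgeR's quasi-likelihood fit at a Benjamini-Hochberg adjusted p under 0.05 over all genes tested. The log2 fold change of DDX41 was -3.29 (SE 0.0881, edgeR adjusted p = 4.10e-12) for shDDX41 #1 and -1.51 (SE 0.0771, edgeR adjusted p = 7.04e-09) for shDDX41 #2. An exact permutation test of its CPM gave p = 0.1 in each comparison, two-sided, the smallest that 3 against 3 libraries allow.

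With shDDX41 #1, 43 of the 47 members were called lower, 0 were called higher by edgeR, and 4 were not called (ORC2, ORC4, ORC5 and RPA2). At an unadjusted p under 0.05, and by DESeq2 and limma voom, the members higher also numbered 0. Of all genes tested, 24.1% were called lower and 23.7% higher in this comparison. The median log2 fold change of the members was -0.78, beside 0.01 over all genes tested. The members ranged from -2.07 for DSCC1 to 0.01 for RPA2 and ORC4, and 10 were at least 2-fold lower. The CPM values of shDDX41 #1 and sh-Control did not overlap for 43 members, against 53.1% of all genes tested. The members together took 0.717% to 0.762% of the counts in the control libraries and 0.394% to 0.467% with shDDX41 #1. Bulk counts cannot tell fewer cells in S phase from less of these RNAs in each cell.

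With shDDX41 #2, 10 members were called lower by edgeR, 0 higher and 37 were not called. At an unadjusted p under 0.05, 1 member (GINS4) was higher, and DESeq2 and limma voom called 0 higher. The shares over all genes tested were 13.4% lower and 11.6% higher. Their median log2 fold change was -0.13, against -0.01 over all genes, and they ranged from -0.98 for MCM6 to 0.20 for GINS4. The groups did not overlap for 21 members, against 43.8% of all genes tested. The members took 0.649% to 0.665% of the counts. The 10 called were ORC5, ORC6, CDC6, GMNN, MCM6, CDC45, MCM10, RFC3, POLD2 and POLE2, and 9 of these were also called lower with shDDX41 #1, the exception being ORC5. Both comparisons share the control libraries. Leaving out 1 library moved the count of 10 to 5 without shDDX41 #2 B, to 6 without shDDX41 #2 D and to 14 without shDDX41 #1 D. ORC6, MCM6, MCM10, RFC3 and POLE2 were called in each of the 18 other analyses at the same threshold, while ORC5, CDC6, GMNN, CDC45 and POLD2 each lost the call in at least 1 of them. ORC5 lost it with DESeq2, with upper quartile scaling and with no filter on low counts. The ORC5 call also went without sh-Control B or D, shDDX41 #1 A, or any 1 shDDX41 #2 library. CDC6 and GMNN both lost theirs with upper quartile scaling, without sh-Control D and without any 1 shDDX41 #2 library.

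Compared directly, 39 members were lower with shDDX41 #1 than with shDDX41 #2, 2 were higher (MCM6 and ORC5) and 6 were not called. Of all genes tested, 24.2% were called lower and 24.6% higher in this comparison. The median was -0.64, beside 0.01 over all genes, and the hairpins did not overlap for 43 members, against 57.7% of all genes. The median over the 47 members of log2 CPM minus the control mean was -0.78, -0.68 and -0.84 in the shDDX41 #1 libraries, -0.10, -0.11 and -0.16 in the shDDX41 #2 libraries and -0.06, 0.05 and 0.02 in the controls. In each shDDX41 #1 library 44 members lay below every control, and in the shDDX41 #2 libraries 26, 24 and 32 did. This count was not made over all genes tested, so it has no background to be read against.

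**Figure D2:**
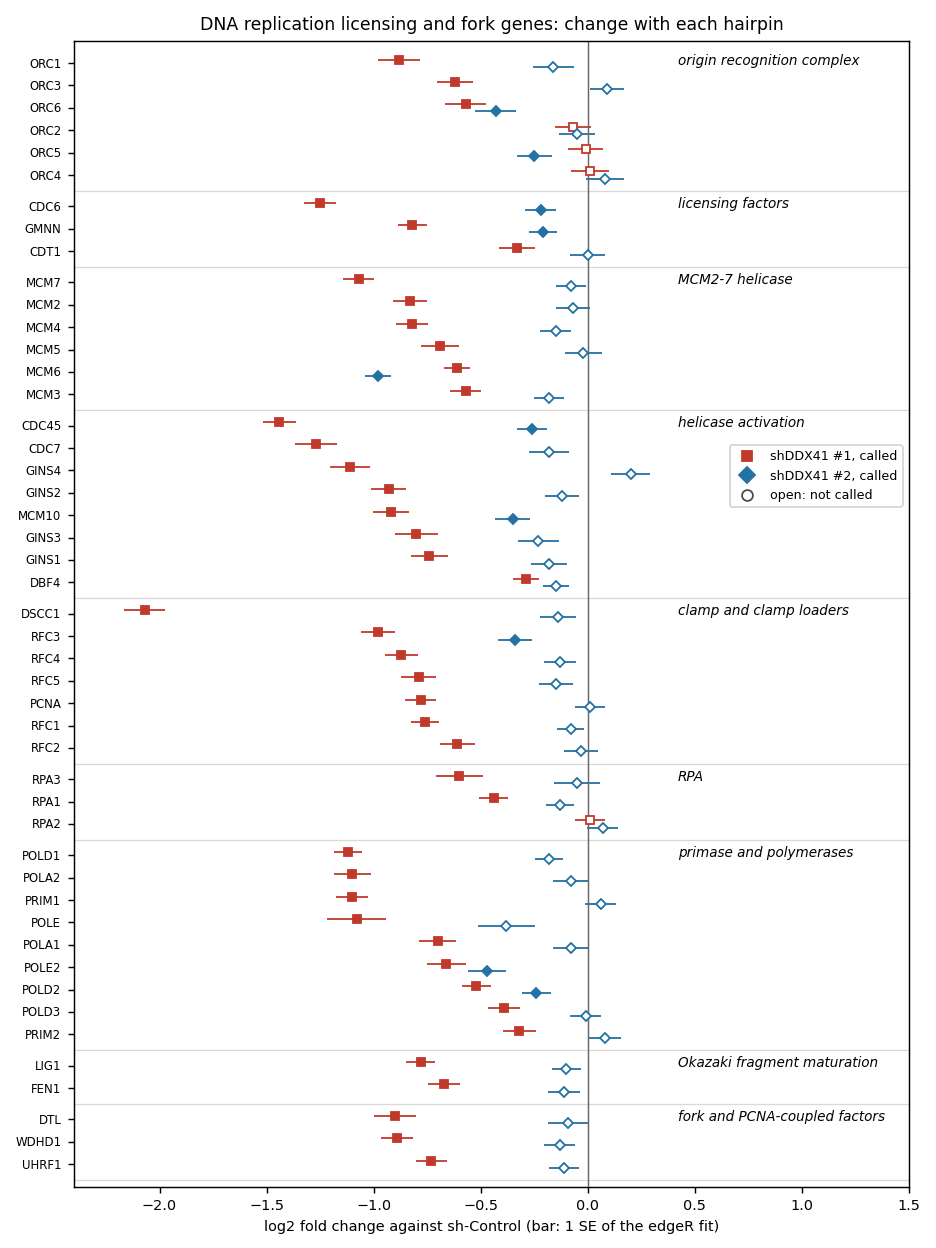
Log2 fold change against sh-Control (horizontal axis, with 1 SE of the edgeR fit as bar) of the 47 members, grouped by role, for shDDX41 #1 (squares) and shDDX41 #2 (diamonds); filled symbols were called. The shDDX41 #1 value lies left of the shDDX41 #2 value except for MCM6 and ORC5, and ORC2, ORC4, ORC5 and RPA2 sit near 0 with shDDX41 #1.

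The ORC, the 6-subunit machine that marks origins, fell unevenly with shDDX41 #1. ORC1, ORC3 and ORC6 were lower, and ORC2, ORC4 and ORC5 were not called, with a median log2 fold change of -0.32 over the 6. ORC1, the subunit that is itself regulated through the cell cycle, was at 98.3, 103 and 85.9 CPM in sh-Control, 55.8, 57.7 and 42.9 with shDDX41 #1 and 84.9, 86.7 and 85.8 with shDDX41 #2. All 3 shDDX41 #1 libraries were below every other library, a log2 fold change of -0.88 (SE 0.0983, edgeR adjusted p = 4.50e-06). ORC3 was at 39.0, 46.8 and 46.4 CPM in sh-Control and 29.9, 28.7 and 27.2 with shDDX41 #1 (log2 fold change -0.62), and its 47.7, 45.2 and 47.8 CPM with shDDX41 #2 lay within or just above the control range. ORC6, the subunit that is least tightly bound to the rest, was lower with both hairpins, at 38.1, 46.3 and 45.0 CPM in sh-Control, 26.5, 30.6 and 29.9 with shDDX41 #1 and 31.1, 29.4 and 35.6 with shDDX41 #2 (log2 fold changes -0.57 and -0.43). The hairpins overlapped each other for ORC6, and their difference of -0.14 was not called.

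The uncalled subunits stayed close to the control values. ORC2 was at 36.4, 42.9 and 42.9 CPM in sh-Control, 35.7, 39.5 and 41.2 with shDDX41 #1 and 37.9, 40.2 and 40.3 with shDDX41 #2. ORC4, one of the ATPase-fold subunits, was at 24.0, 24.5 and 24.5 CPM in sh-Control, 26.0, 22.7 and 24.8 with shDDX41 #1 and 25.9, 28.0 and 23.3 with shDDX41 #2. The 95% intervals of the shDDX41 #1 log2 fold change were -0.25 to 0.11 for ORC2, -0.18 to 0.20 for ORC4 and -0.18 to 0.17 for ORC5, so that a fall as deep as the median of the members (-0.78) lay outside all 3. ORC5 was at 30.3, 32.1 and 33.9 CPM in sh-Control, 31.3, 34.6 and 30.1 with shDDX41 #1 and 28.1, 25.7 and 27.5 with shDDX41 #2. Here the shDDX41 #2 libraries were the lowest and did not overlap the others (log2 fold change -0.25 against sh-Control, SE 0.0816, edgeR adjusted p = 0.0385). This call was lost with DESeq2 (Wald test, adjusted p = 0.0559) and in several fits that left out 1 library.

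All 3 licensing factors were lower with shDDX41 #1. CDC6, the ATPase that joins ORC to load the helicase, was at 119, 128 and 125 CPM in sh-Control, 54.3, 55.7 and 46.5 with shDDX41 #1 and 106, 111 and 103 with shDDX41 #2. The 3 groups did not overlap, and the log2 fold changes were -1.25 (SE 0.0752, edgeR adjusted p = 1.09e-08) and -0.22 (SE 0.0724, edgeR adjusted p = 0.0390). GMNN encodes geminin, the inhibitor of CDT1, and was at 119, 117 and 134 CPM in sh-Control, 72.7, 68.4 and 68.6 with shDDX41 #1 and 108, 106 and 107 with shDDX41 #2. It was called lower with both hairpins (log2 fold changes -0.82 and -0.21), with the shDDX41 #2 libraries between the other groups. CDT1, which brings the helicase to origins, changed least of these factors with shDDX41 #1 (-0.33, edgeR adjusted p = 0.00389) and was at 0.00 with shDDX41 #2 (95% interval -0.18 to 0.17).

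All 6 subunits of the MCM2 to MCM7 ring were lower with shDDX41 #1, from -1.07 for MCM7 to -0.57 for MCM3, with a median of -0.75. MCM7 was at 606, 590 and 583 CPM in sh-Control, 286, 307 and 253 with shDDX41 #1 and 567, 578 and 540 with shDDX41 #2. All shDDX41 #1 values were below every other library, a log2 fold change of -1.07 (SE 0.0716, edgeR adjusted p = 2.73e-08), while the shDDX41 #2 value of -0.08 was not called. MCM2 was at 403, 369 and 346 CPM in sh-Control, 216, 227 and 184 with shDDX41 #1 and 359, 361 and 344 with shDDX41 #2 (log2 fold changes -0.83 and -0.07). Its shDDX41 #2 libraries overlapped the controls. MCM3, MCM4 and MCM5 gave -0.57, -0.82 and -0.69 with shDDX41 #1, and -0.18, -0.15 and -0.02 with shDDX41 #2, which were not called.

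MCM6 behaved differently from the other subunits. It was at 357, 364 and 377 CPM in sh-Control, 235, 244 and 239 with shDDX41 #1 and 190, 193 and 173 with shDDX41 #2. The 3 groups did not overlap, and the hairpin that left more DDX41 mRNA gave the lower MCM6 level. The log2 fold changes were -0.61 (SE 0.0619, edgeR adjusted p = 1.58e-06) with shDDX41 #1 and -0.98 (SE 0.0624, edgeR adjusted p = 7.64e-08) with shDDX41 #2, a fall of 34.6% and 49.3% respectively. The direct difference between the hairpins was 0.37 (SE 0.0623, edgeR adjusted p = 0.000196). Of the summed CPM of the 6 ring subunits, MCM6 took 11.5%, 11.6% and 12.5% in sh-Control, 12.9%, 12.7% and 14.7% with shDDX41 #1 and 6.95%, 7.0% and 6.64% with shDDX41 #2. MCM7 took 19.6%, 18.8% and 19.3%, then 15.8%, 16% and 15.6%, then 20.7%, 21% and 20.7%. MCM6 was thus the subunit that lost share with shDDX41 #2 and MCM7 the one whose share fell below every control with shDDX41 #1 by over 2 percentage points. Whether either hairpin pairs with MCM6 mRNA was not tested.

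**Figure D3:**
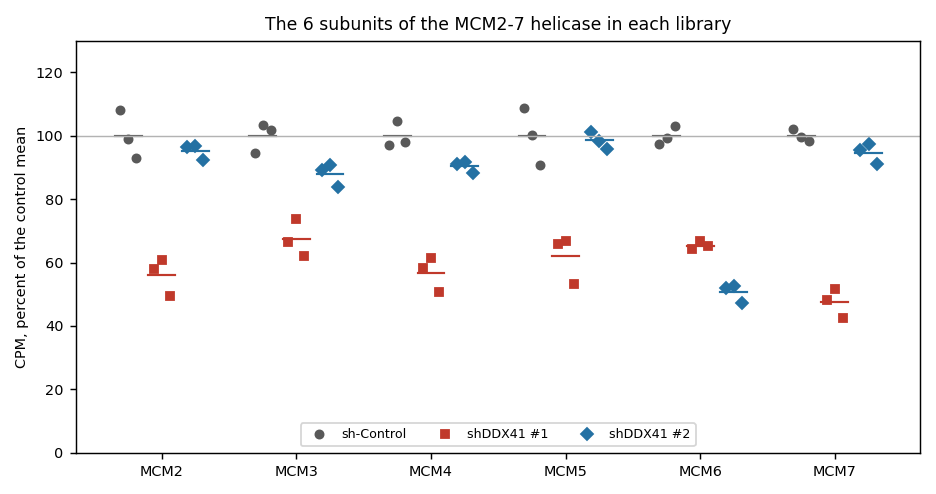
CPM of the 6 MCM2 to MCM7 subunits in each library as percent of the sh-Control mean (vertical axis), with 3 libraries per group as points and the group mean as a short line. For 5 subunits shDDX41 #1 is lowest, and for MCM6 the shDDX41 #2 libraries (173 to 193 CPM) lie below those of shDDX41 #1 (235 to 244 CPM).

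All 8 genes of helicase activation were lower with shDDX41 #1, with a median of -0.92, and 3 were at least 2-fold lower. CDC45, the subunit that completes the active helicase with MCM and GINS, was at 76.2, 85.6 and 82.5 CPM in sh-Control, 27.6, 31.4 and 31.2 with shDDX41 #1 and 69.8, 64.9 and 69.0 with shDDX41 #2. The 3 groups did not overlap, and the log2 fold changes were -1.44 (SE 0.0752, edgeR adjusted p = 3.25e-09) and -0.26 (SE 0.0710, edgeR adjusted p = 0.0137). CDC7, the catalytic subunit of the kinase that starts origin firing, was at 45.5, 60.9 and 52.1 CPM in sh-Control, 23.1, 22.2 and 20.4 with shDDX41 #1 and 48.3, 46.7 and 45.2 with shDDX41 #2. All shDDX41 #1 libraries were far below the rest (-1.27), and the shDDX41 #2 value of -0.18 was not called. Its activating partner DBF4 gave only -0.29 with shDDX41 #1 (edgeR adjusted p = 0.00105), and its difference between the hairpins (-0.14) was not called.

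MCM10, which helps the new helicase to open DNA, was lower with both hairpins, at 80.9, 95.9 and 85.8 CPM in sh-Control, 49.2, 48.3 and 41.2 with shDDX41 #1 and 64.9, 69.6 and 71.6 with shDDX41 #2 (log2 fold changes -0.92 and -0.35). Its shDDX41 #2 libraries lay between the other groups without overlap. The 4 GINS subunits gave -0.74, -0.93, -0.80 and -1.11 for GINS1 to GINS4 with shDDX41 #1. GINS4 was the member with the highest value with shDDX41 #2 (0.20, 95% interval 0.01 to 0.39, edgeR adjusted p = 0.120). That value was not called, although all 3 of its shDDX41 #2 libraries were above every control. It was called higher in the fit of only the 6 libraries compared.

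All 7 genes of the clamp and its loaders were lower with shDDX41 #1, with a median of -0.79. DSCC1, a subunit of the alternative clamp loader that also serves sister chromatid cohesion, had the largest change of all members. It was at 60.0, 71.4 and 73.0 CPM in sh-Control, 14.9, 18.2 and 15.4 with shDDX41 #1 and 63.2, 62.1 and 60.7 with shDDX41 #2. The fall with shDDX41 #1 was 76.2% (log2 fold change -2.07, SE 0.0943, edgeR adjusted p = 8.15e-10), while the shDDX41 #2 libraries lay within the control range (-0.14, 95% interval -0.32 to 0.04). RFC3, a subunit shared by the clamp loaders, was lower with both hairpins, at 143, 167 and 170 CPM in sh-Control, 78.5, 88.5 and 76.1 with shDDX41 #1 and 132, 124 and 124 with shDDX41 #2 (log2 fold changes -0.98 and -0.34). The other loader subunits RFC1, RFC2, RFC4 and RFC5 gave -0.76, -0.61, -0.87 and -0.79 with shDDX41 #1, and none of these was called with shDDX41 #2. PCNA, the clamp itself, gave -0.78 with shDDX41 #1 and 0.01 with shDDX41 #2 (95% interval -0.14 to 0.16).

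RPA, the complex of 3 subunits that covers unwound DNA, was split. RPA1, the large DNA-binding subunit, was at 195, 196 and 209 CPM in sh-Control, 144, 159 and 140 with shDDX41 #1 and 182, 189 and 176 with shDDX41 #2. RPA3, the small subunit, was at 38.1, 36.8 and 43.9 CPM in sh-Control, 24.7, 22.4 and 31.2 with shDDX41 #1 and 40.3, 39.2 and 35.5 with shDDX41 #2. Both were lower with shDDX41 #1 without overlap (log2 fold changes -0.44 and -0.60), and neither was called with shDDX41 #2. RPA2, the subunit phosphorylated under replication stress, was at 112, 118 and 126 CPM in sh-Control, 113, 121 and 126 with shDDX41 #1 and 120, 133 and 121 with shDDX41 #2. The 3 groups overlapped, and the shDDX41 #1 interval ran from -0.14 to 0.17 around 0.01.

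**Figure D4:**
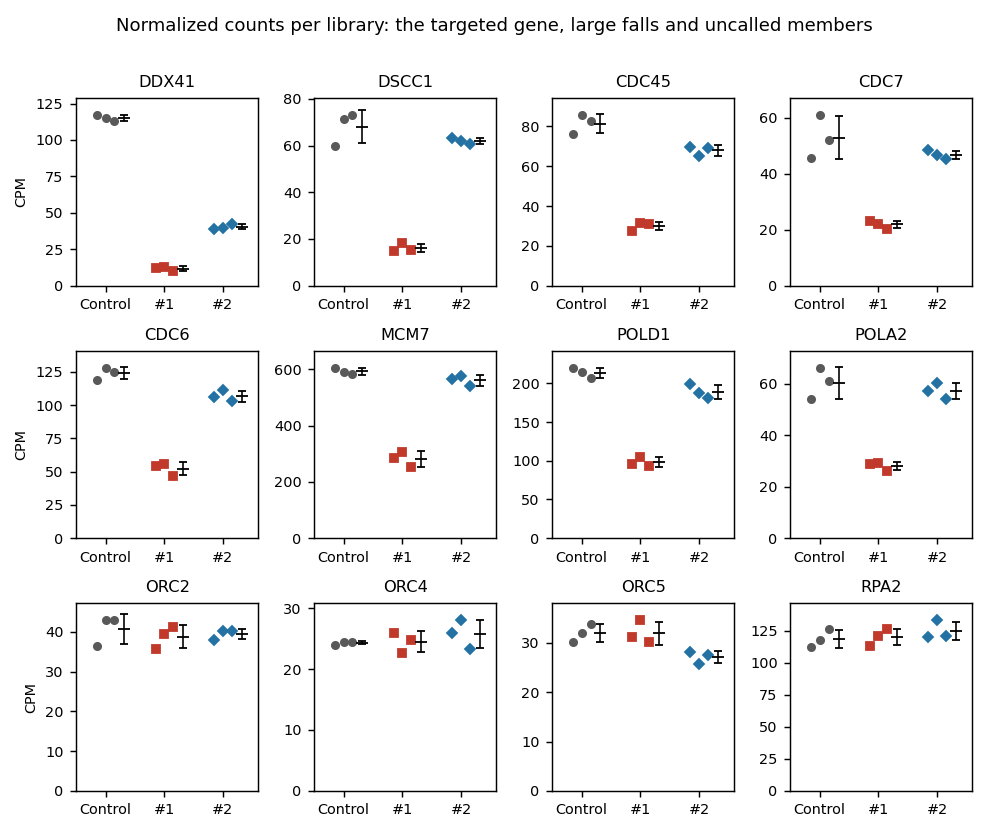
CPM in each library (vertical axis from 0) of DDX41, of 7 members with large falls and of the 4 members not called with shDDX41 #1; points are libraries A, B and D from left to right and the black bar is the mean with SD (n = 3). DSCC1 falls to 14.9 to 18.2 CPM with shDDX41 #1, and the groups overlap for ORC2, ORC4 and RPA2.

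All 9 primase and polymerase subunits were lower with shDDX41 #1, with a median of -0.70, and 4 were at least 2-fold lower (POLD1, POLA2, PRIM1 and POLE). POLD1, the catalytic subunit of polymerase delta, was at 220, 214 and 207 CPM in sh-Control, 96.4, 105 and 93.1 with shDDX41 #1 and 199, 187 and 181 with shDDX41 #2. Its log2 fold change with shDDX41 #1 was -1.12 (SE 0.0668, edgeR adjusted p = 9.60e-09), and the shDDX41 #2 value of -0.18 was not called (edgeR adjusted p = 0.0591) although the groups did not overlap. POLA2, an accessory subunit of polymerase alpha, was at 54.0, 66.3 and 61.0 CPM in sh-Control, 28.8, 29.3 and 26.3 with shDDX41 #1 and 57.3, 60.2 and 54.0 with shDDX41 #2 (log2 fold changes -1.10 and -0.08). In GENCODE v29, 35.1% of the exon length of POLA2 overlaps AP000944.2 on the same strand, so reads of these genes may not be separable. PRIM1, the catalytic primase subunit, gave -1.10 with shDDX41 #1 and its partner PRIM2 -0.32, the smallest value of this group.

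POLD2 and POLE2, accessory subunits of polymerases delta and epsilon, were lower with both hairpins. POLD2 was at 197, 176 and 173 CPM in sh-Control, 130, 124 and 127 with shDDX41 #1 and 161, 148 and 154 with shDDX41 #2 (log2 fold changes -0.52 and -0.24). POLE2 was at 27.0, 27.1 and 30.9 CPM in sh-Control, 17.2, 18.6 and 18.0 with shDDX41 #1 and 20.0, 21.8 and 19.6 with shDDX41 #2 (log2 fold changes -0.66 and -0.47). For both genes the 3 groups did not overlap, with shDDX41 #2 in the middle. POLE, the catalytic subunit of polymerase epsilon, had the largest SE of all members, with 68.7, 75.9 and 45.7 CPM with shDDX41 #1 against 137, 146 and 121 in sh-Control. Its shDDX41 #2 value was -0.38 and just missed the threshold (SE 0.134, edgeR adjusted p = 0.0501).

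The enzymes that finish Okazaki fragments were lower with shDDX41 #1 and were not called with shDDX41 #2. FEN1, the flap endonuclease, was at 162, 161 and 182 CPM in sh-Control, 96.0, 109 and 112 with shDDX41 #1 and 163, 155 and 151 with shDDX41 #2 (log2 fold changes -0.67 and -0.11). LIG1, the ligase that seals the nicks, was at 163, 153 and 146 CPM in sh-Control, 85.9, 96.0 and 86.1 with shDDX41 #1 and 148, 143 and 139 with shDDX41 #2 (log2 fold changes -0.78 and -0.10). In both genes the shDDX41 #2 libraries overlapped the controls.

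The factors coupled to the fork and to PCNA were also lower with shDDX41 #1 and not called with shDDX41 #2. WDHD1, which links the helicase to polymerase alpha, was at 47.5, 49.8 and 53.0 CPM in sh-Control, 28.7, 25.6 and 26.9 with shDDX41 #1 and 44.9, 44.5 and 48.2 with shDDX41 #2. DTL, the receptor of the ubiquitin ligase that destroys CDT1 on PCNA, was at 98.2, 107 and 104 CPM in sh-Control, 57.0, 64.3 and 44.2 with shDDX41 #1 and 96.6, 96.2 and 96.7 with shDDX41 #2. Both fell with shDDX41 #1 (log2 fold changes -0.89 and -0.90), and the DTL value of the D library was the lowest of its group. The shDDX41 #2 values of DTL lay just below every control. UHRF1, which carries DNA methylation through replication, gave -0.73 with shDDX41 #1 and -0.11 with shDDX41 #2, the latter not called.

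Another 45 genes of replication, listed by function, were examined beside the members. With shDDX41 #1, 36 were called lower, 3 higher and 6 were not called, with a median of -0.84. With shDDX41 #2, 9 were lower, with a median of -0.11, and in the direct comparison 35 were lower and 5 higher. The smallest adjusted p-values with shDDX41 #1 belonged to TIMELESS, of the fork protection complex (128, 135 and 127 CPM in sh-Control against 46.6, 48.0 and 43.0, log2 fold change -1.51), RRM2, the regulated subunit of ribonucleotide reductase (354, 356 and 332 against 118, 122 and 97.6 CPM, -1.63), and CLSPN, the claspin checkpoint mediator (101, 107 and 106 against 38.9, 43.9 and 37.0 CPM, -1.39). All 8 genes of fork chromatin were lower with shDDX41 #1, as were all 5 of nucleotide supply and all 3 of fork protection. Other functions were mixed. Of 3 accessory polymerase subunits, 1 was lower, 1 higher and 1 not called. Of 6 genes of the CDT1 and PCNA ubiquitin pathway, 3 were lower and 3 not called.

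The 3 genes called higher with shDDX41 #1 were KAT7, the histone acetyltransferase of origins (0.27, edgeR adjusted p = 0.0418), POLD4, the small subunit of polymerase delta (0.39, edgeR adjusted p = 0.0159), and CHTF8 (0.26, edgeR adjusted p = 0.00431). CHTF8, DSCC1 and CHTF18 are the subunits that set the alternative clamp loader apart. CHTF18, picked after its values were seen, was at 39.7, 47.8 and 45.8 CPM in sh-Control and 14.2, 19.1 and 18.1 with shDDX41 #1 (log2 fold change -1.37). Both DSCC1 and CHTF18 thus fell by over 2-fold with shDDX41 #1, while CHTF8 went from 107, 102 and 101 CPM to 127, 131 and 114. With shDDX41 #2 CHTF8 was instead called lower, at 89.6, 90.7 and 89.3 CPM (log2 fold change -0.20, edgeR adjusted p = 0.0347). DSCC1 and CHTF18 were not called with shDDX41 #2.

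Genes of mitosis moved in the same direction. All 10 examined, among them CDK1 and BUB1, were lower with shDDX41 #1, with a median of -0.76 beside the -0.78 of the replication members, and 2 were lower with shDDX41 #2 (median -0.14). MKI67, the proliferation antigen, was at 485, 495 and 335 CPM in sh-Control and 298, 315 and 190 with shDDX41 #1, with the D library lowest in both groups. The part that the number of cycling cells had in the levels of the replication genes was not tested.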

How the data were processed

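RNA was isolated with the Quick-RNA Miniprep Kit, and poly(A)-selected TruSeq libraries were sequenced on a HiSeq2500. The labels name a strand-specific kit and the methods one without strand, so genes overlapping on opposite strands are uncertain. The submitters' processing notes list FastQC 0.11.7, HISAT2 2.0.5 and featureCounts 1.5.2, and the builds mm10 and hg38 without their roles. The authors deposited whole-number counts per gene, not normalized, for 9 libraries, and 0 columns were unmapped. The table held no mitochondrial MT- genes.

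Groups came from the labels. Counts were fitted in R 4.3.3 with edgeR 4.0.16: filterByExpr with a minimum count of 10 left 12712 genes, libraries were scaled by TMM (factors 0.963 to 1.02), and 1 quasi-likelihood model held all 9 libraries, since the methods name iGEAK for the analysis but no count model. The 3 contrasts were two-sided, adjusted by Benjamini-Hochberg over all genes tested and called at 0.05. The SE is the log2 fold change divided by the square root of F, and 95% intervals use the model's degrees of freedom. The common biological coefficient of variation was 0.0768. Scripts were tested on simulated data. The members and lists were chosen with earlier results of these data known. Values per library are given for the 2 largest changes with shDDX41 #1 in each role list, for every member called with shDDX41 #2 and for every member not lower with shDDX41 #1; of the other 45 replication genes, the 3 with the smallest adjusted p and every one called higher are named, and the result of 1 gene is not reported here. Exon overlaps were taken from GENCODE v29 by symbol, and 18 members overlap exons of another gene, 1 of them over 25% of its length. The alternatives were DESeq2 size factors, upper quartile factors, library size only, other filters, DESeq2 1.42.0, limma 3.58.1 voom, a fit of just the 6 libraries at issue, a block for the letter, leaving out single libraries and a threshold of 0.01.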

Additional observations from a re-analysis of the deposited data

Results flagged for a closer look

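MCM6 and ORC5 differed between the hairpins in the direction opposite to the other members called in that comparison, with the lower level under shDDX41 #2, which left more DDX41 mRNA. The edgeR log2 difference of shDDX41 #1 minus shDDX41 #2 was 0.37 for MCM6 (adjusted p = 0.000196) and 0.24 for ORC5 (adjusted p = 0.0247), each tested as its own contrast, and in both genes every shDDX41 #2 library was below every shDDX41 #1 library. This direction was not particular to the 2 members. Of all genes tested, 24.6% were called higher in that contrast. So were 5 of the other 45 replication genes, each of them also called lower with shDDX41 #2 than in sh-Control. MCM6 kept its call in the direct contrast in each of the 18 other analyses at the same threshold. ORC5 lost it without shDDX41 #1 B, without shDDX41 #2 B and without shDDX41 #2 D. The cause was not tested.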

How the results depend on the processing

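All 43 members called lower with shDDX41 #1 kept that call in each of the 18 other fits and none was added, and 43 also passed an adjusted p under 0.01. With upper quartile factors the members' median was -0.70 while that of all genes moved from 0.01 to 0.09, and higher calls over all genes went from 49.5% to 61.1% of calls. With shDDX41 #2, 10 members lower became 5 at an adjusted p under 0.01, 7 with upper quartile factors, 13 in the fit of only the 6 libraries compared and 14 with the replicate block, and ranged from 5 to 14 when single libraries were left out. Members higher there numbered 1 in the fit of 6 libraries and 0 to 1 with libraries left out. Between the hairpins, 39 members were lower with any library left out, members higher numbered 1 at 0.01 and 1 to 2 with libraries left out, and the median ranged from -0.70 to -0.60. The replicate letters were not taken to pair the libraries. Same-letter deviations of sh-Control and shDDX41 #1 correlated at 0.073, 0.158 and 0.243, against -0.184 to 0.066 for different letters, so each library there correlated best with its own letter, a hint from the data. In pairs with shDDX41 #2 the same-letter values ran from -0.057 to 0.023. With the replicate block, 43 and 39 members were lower with shDDX41 #1 against sh-Control and against shDDX41 #2.

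Signs turned for members that were not called. With upper quartile factors ORC2 gave 0.01 and ORC5 0.07 with shDDX41 #1, and ORC2 0.02 between the hairpins. ORC4 gave -0.01 with library size only, and ORC5 0.00 with at least 10 counts in every library. With single libraries left out, ORC4 ran from -0.03 to 0.06, ORC5 from -0.06 to 0.05 and RPA2 from -0.03 to 0.06 with shDDX41 #1, RPA3 from -0.09 to 0.03 with shDDX41 #2, and ORC2 from -0.07 to 0.03 between the hairpins.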

Other observations

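Per kilobase of merged exon (GENCODE v29), the ring subunits did not stand at equal levels in the control cells. MCM4 and MCM7 were at 151 and 135 CPM per kilobase, MCM3 at 116, MCM6 at 88.9, MCM2 at 76.1 and MCM5 at 38.0. With shDDX41 #2, MCM6 stood at 45.2 CPM per kilobase, close to the 37.5 of MCM5. PCNA was at 390 CPM per kilobase in sh-Control and 228 with shDDX41 #1. Merged exons include rarely used ends, which lowers these values unequally.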
